A study of Mus musculus with 28 samples.

Results

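Decorin (Dcn) and 7 related genes of the small leucine-rich proteoglycan family, Lum, Bgn, Fmod, Ogn, Aspn, Prelp and Podn, were followed in 3LL lung cancer cells and in the tumors these cells formed. The members were taken as the rows of the expression table that carry one of the 8 gene symbols. All 8 symbols were present, each on 1 row, among 43143 rows, and 2 further rows without a symbol belonged to Dcn and Podn by their transcript identifiers. Dcn was chosen by its own values in these libraries, because it was lower with KEAP1 loss and higher again with additional NRF2 loss in both cells and tumors. Its genotype differences are therefore given as a description with no test, and tests are given for its relatives and for contrasts that did not choose it.

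Small leucine-rich proteoglycans are secreted proteins of the extracellular matrix, built of leucine-rich repeats and mostly carrying glycosaminoglycan chains. Decorin and lumican bind fibrillar collagen and shape its fibrils, decorin and biglycan also bind TGF-beta and cell-surface receptors, and soluble biglycan is a known ligand of Toll-like receptors on macrophages. In tumors the family is known mainly as a product of fibroblasts in the stroma. KEAP1 holds the transcription factor NRF2 at a low level, so that loss of KEAP1 leaves NRF2 active.

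The 3LL line derives from a mouse Lewis lung carcinoma. RNA was sequenced from 7 groups of 4 libraries. The cell groups were wild-type (WT) cells, KEAP1-KO cells, which were grown from a single colony with a homozygous 1-bp insertion in Keap1 exon 2, and Keap1-Nrf2 double knockout (DKO) cells, made from the KEAP1-KO cells by frameshifts in Nrf2 exon 5. The tumor groups were taken 10 days after these cells had been placed under the skin of both flanks of albino C57BL/6 male mice of 6 weeks of age. In Experiment A the left flank received WT cells and the right flank KEAP1-KO cells. In Experiment B the left flank received KEAP1-KO cells and the right flank DKO cells. Genotype and flank thus changed together within each experiment, with KEAP1-KO cells on the right in Experiment A and on the left in Experiment B, the hosts were not edited, and WT and DKO tumors were never grown in the same experiment. Each edited line stands for 1 clone history, and nothing in the labels says that the cell libraries came from separate cultures, so p-values measure the spread between these libraries.

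Levels are log2(normalized count + 4), the scale of the deposited table, on which a gene with no read has the value 2. Recovered library totals lay between 4222416 and 7524288 reads, with a median of 5619783. The genotype checks followed the labels: the Keap1 row was lower by 1.43 (SE 0.13) in KEAP1-KO tumors than in WT tumors, and Nqo1, a target gene of NRF2, was higher by 5.55 (SE 0.18) there and fell by 6.30 (SE 0.18) from KEAP1-KO to DKO tumors. The Nfe2l2 row, which encodes NRF2, showed a difference of -0.000675 between DKO and KEAP1-KO tumors, and a frameshift need not lower it. A few tumors stood apart in collagen or fibroblast-marker sums. The sum of 16 collagen and collagen-partner rows was 24462 normalized counts in WT tumor 1 and at most 10269 in the other WT tumors, and the sum of 15 fibroblast-marker rows was 4610 in KEAP1-KO tumor 3 of Experiment A and at most 1814 in the other KEAP1-KO tumors of that experiment.

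What the Dcn rows measure is shown by their sequences. In the GENCODE vM21 annotation of GRCm38, Dcn lies on the plus strand of chromosome 10 at chr10:97479609-97518143, and neither of its rows was its protein-coding transcript. The row with the symbol, ENSMUST00000218853, is a retained-intron transcript of 523 bases, of which 330 lie in exons of the coding transcripts and 193 run on into the intron. The row without a symbol, ENSMUST00000219539, is a retained-intron transcript of 4692 bases, with 3542 bases outside those exons. The stretches where coding exon (capitals) runs on into retained intron (lower case) were read from the annotated transcripts at chr10:97483499-97483618 and chr10:97509999-97510118, plus strand:
ENSMUST00000218853: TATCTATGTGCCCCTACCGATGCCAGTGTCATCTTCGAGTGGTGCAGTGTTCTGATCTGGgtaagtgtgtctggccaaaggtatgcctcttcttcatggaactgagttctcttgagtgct
ENSMUST00000219539: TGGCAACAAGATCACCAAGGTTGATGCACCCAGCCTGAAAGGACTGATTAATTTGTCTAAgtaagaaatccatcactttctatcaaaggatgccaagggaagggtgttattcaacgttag
Both stretches pass from exon into intron at a GT dinucleotide, the usual start of an intron. How reads of spliced Dcn transcripts were shared among the annotated transcripts is not given in the sources used here, so the values below are those of the rows and not of the whole gene.

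The relatives lie in pairs. Lum, at chr10:97565128-97572703, follows Dcn on the same strand after 46984 bases. Aspn and Ogn lie 40480 bases apart on chromosome 13, at chr13:49544443-49567565 and chr13:49608046-49624501, and Prelp and Fmod lie 115839 bases apart on chromosome 1, at chr1:133910304-133921414 and chr1:134037254-134048277. Bgn is on chromosome X at chrX:73483602-73495933 and Podn on chromosome 4 at chr4:108014791-108096445. Lum, Bgn, Aspn, Ogn, Prelp and Fmod were each given as 1 gene row, and Podn as the protein-coding transcript ENSMUST00000146851.

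Dcn was at its highest in DKO tumors and at its lowest in KEAP1-KO cells. In WT tumors the 4 levels were 11.26, 11.25, 11.50 and 11.89, a mean of 11.48 ± 0.30 (SD, n = 4). In Experiment A KEAP1-KO tumors they were 9.73, 9.73, 9.39 and 9.94, a mean of 9.70 ± 0.23 (SD, n = 4). No WT and KEAP1-KO tumor overlapped, and on the linear scale the mean normalized count was 3.46-fold higher in WT tumors, 2892 against 834.8.

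In Experiment B the KEAP1-KO tumors had Dcn levels of 9.33, 9.16, 9.73 and 9.99, a mean of 9.55 ± 0.38 (SD, n = 4), and the DKO tumors had 12.22, 12.23, 12.20 and 12.97, a mean of 12.41 ± 0.38 (SD, n = 4). Every DKO tumor lay above every KEAP1-KO tumor and also above every WT tumor of Experiment A, and the mean normalized count was 7.27-fold higher in DKO than in KEAP1-KO tumors of Experiment B. The KEAP1-KO tumors of both experiments overlapped, with a difference of -0.15 (SE 0.21, 95% interval -0.58 to 0.29) and an adjusted p of 0.912 in limma.

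In cells Dcn was close to the detection limit but kept the same order. WT cells held 8, 8, 13 and 6 reads, KEAP1-KO cells 5, 4, 1 and 2, and DKO cells 17, 17, 14 and 22. The log2 means were 3.73 ± 0.33, 2.71 ± 0.36 and 4.39 ± 0.12 (SD, n = 4 each), with no overlap between the genotypes. The mean normalized count was 3.52-fold higher in WT than in KEAP1-KO cells and 6.25-fold higher in DKO than in KEAP1-KO cells, ratios that rest on 12 reads in all 4 KEAP1-KO libraries together. DKO cells also lay above WT cells, by 1.77-fold. In the order of the 7 groups, KEAP1-KO tumors of Experiments A and B were the only neighbours whose ranges overlapped.

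**Figure D1:**
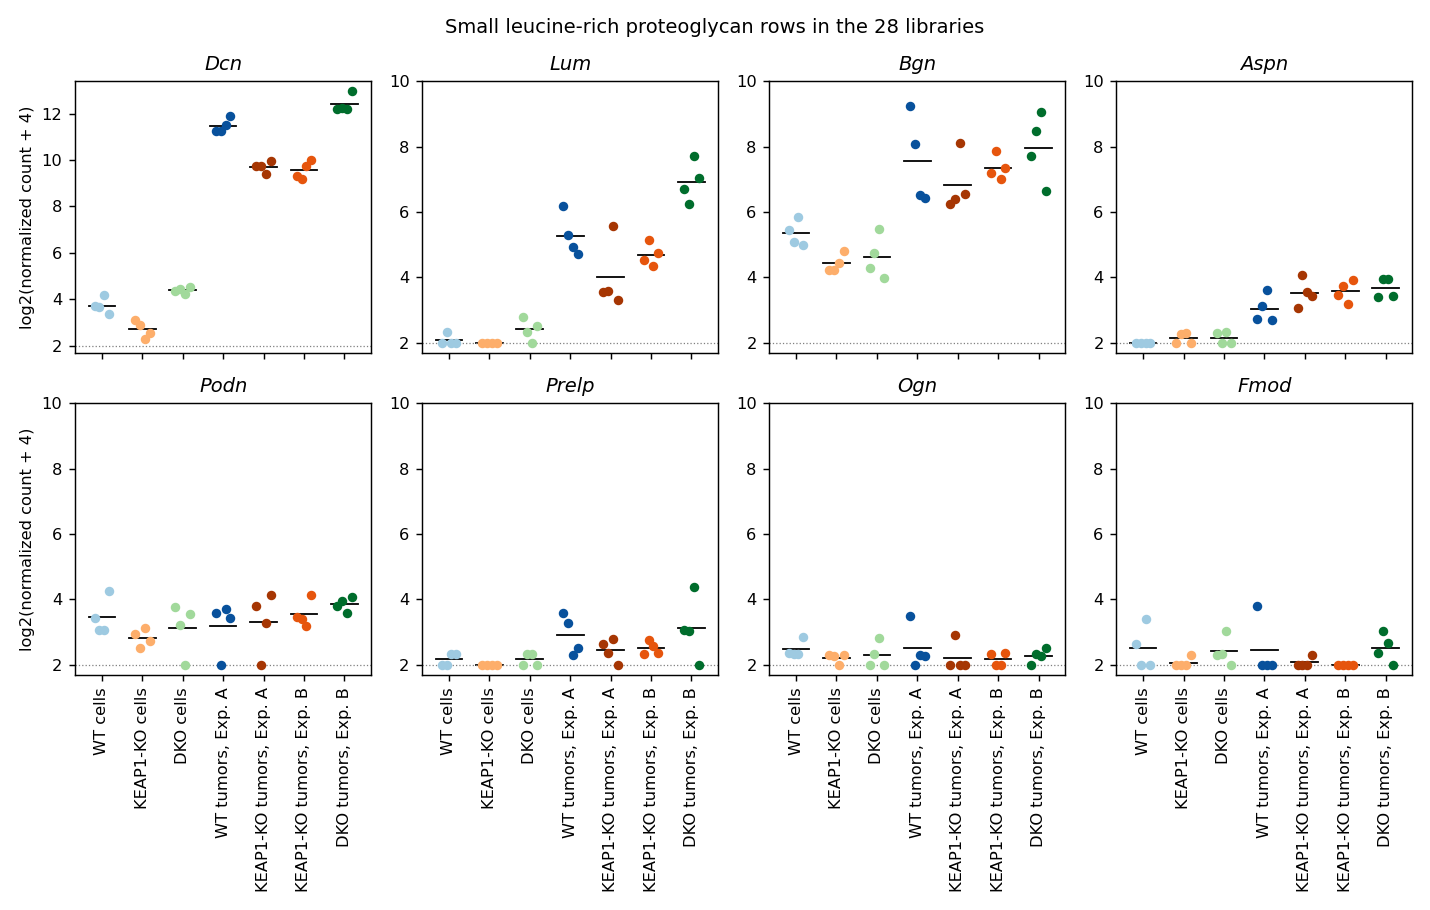
Levels of the 8 proteoglycan rows, as log2(normalized count + 4), in each of the 28 libraries; points are libraries, black bars are group means, the dotted line at 2 marks no read, and the Dcn panel has a longer axis than the others. Dcn reached 12.97 in DKO tumors and fell to 2.31 in KEAP1-KO cells, Lum separated DKO from KEAP1-KO tumors, and Fmod, Ogn and Prelp stayed near 2 in most libraries.

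Among the tumor groups the Dcn row without a symbol was likewise lowest in KEAP1-KO tumors, but its DKO and WT tumors overlapped. Its levels were 6.39, 6.04, 6.35 and 6.76 in WT tumors and 5.04, 4.88, 4.96 and 4.97 in Experiment A KEAP1-KO tumors. In Experiment B they were 4.52, 4.61, 5.02 and 5.52 in KEAP1-KO tumors and 7.0, 7.06, 6.56 and 7.55 in DKO tumors. The groups compared did not overlap within either experiment, whereas DKO tumor 3 (6.56) lay below WT tumor 4 (6.76), and the mean normalized count was 2.98-fold higher in WT than in KEAP1-KO tumors and 4.81-fold higher in DKO than in KEAP1-KO tumors. In the 12 cell libraries this row had 1 read, in a DKO library. Over the 16 tumors both Dcn rows had a Pearson correlation of 0.985.

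Lum encodes lumican, a keratan sulfate proteoglycan that limits collagen fibril width. It was the relative whose levels came closest to the order of Dcn, and the only relative that passed the test between genotypes. In Experiment B Lum levels were 4.52, 5.16, 4.34 and 4.73 in KEAP1-KO tumors and 6.70, 6.23, 7.70 and 7.05 in DKO tumors. The groups did not overlap, and Lum was higher in DKO tumors by 2.23 (SE 0.46, 95% interval 1.26 to 3.20; adjusted p = 0.00489, limma over 34215 rows), 5.63-fold by mean normalized count. The call held in each of the 13 alternatives to the fit, with adjusted p from 0.000195 to 0.00944, and without any 1 of the 8 tumors, with adjusted p from 0.00509 to 0.0201.

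In Experiment A Lum levels were 6.19, 5.29, 4.93 and 4.70 in WT tumors and 3.56, 3.6, 5.57 and 3.30 in KEAP1-KO tumors. The ranges overlapped through KEAP1-KO tumor 3, the tumor with the high fibroblast-marker sum. The difference was -1.28 (SE 0.46) and did not pass the test (adjusted p = 0.0833, limma). Without KEAP1-KO tumor 3 it was -1.80 and passed, with an adjusted p of 0.00312 in limma, and without WT tumor 1, the tumor with the high collagen sum, it was -0.97 with an adjusted p of 0.235. It passed in 1 of the 8 fits that left out a tumor, and over the alternatives the adjusted p ranged from 0.0247 to 0.184.

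Lum was nearly absent from the cells, with 1 read in all WT libraries together, 0 in all KEAP1-KO libraries and 6 in all DKO libraries. Against a floor of 3 reads over the 4 KEAP1-KO cell libraries, the mean normalized count of Lum was at least 23.9-fold higher in Experiment A KEAP1-KO tumors and at least 32.8-fold higher in those of Experiment B. The first bound rests on KEAP1-KO tumor 3 and was at least 10.6-fold without it. No cultured library held more than 3 Lum reads, whereas every tumor held at least 6.

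Bgn encodes biglycan, the closest relative of decorin in sequence. Its tumor groups all overlapped. Its levels were 9.24, 8.09, 6.53 and 6.42 in WT tumors and 6.25, 6.41, 8.11 and 6.55 in Experiment A KEAP1-KO tumors, and the highest values belonged to the tumors with high collagen and fibroblast-marker sums. The difference of -0.74 (SE 0.61, 95% interval -2.03 to 0.56) did not pass the test (adjusted p = 0.516, limma). Leaving out 1 tumor at a time gave -1.17 without KEAP1-KO tumor 3 and -0.18 without WT tumor 1. In Experiment B Bgn levels were 7.18, 7.86, 7.02 and 7.35 in KEAP1-KO tumors and 7.71, 8.46, 9.05 and 6.64 in DKO tumors, a difference of 0.61 (SE 0.61, 95% interval -0.68 to 1.91; adjusted p = 0.653, limma). Both intervals are wide, and that of Experiment A includes the difference found between KEAP1-KO and WT cells, -0.91.

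Bgn had 14 to 49 reads in each cell library. Its levels were 5.46, 5.10, 5.84 and 5.0 in WT cells, 4.24, 4.24, 4.45 and 4.82 in KEAP1-KO cells, and 4.30, 4.76, 5.49 and 4.0 in DKO cells. WT and KEAP1-KO cells did not overlap, but the difference of -0.91 (SE 0.31) missed the threshold with an adjusted p of 0.0679 in limma, and it passed in 2 of 13 alternatives. DKO cells overlapped with both other genotypes, with a difference from KEAP1-KO cells of 0.20 (SE 0.31, 95% interval -0.47 to 0.87; adjusted p = 0.80, limma).

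Aspn encodes asporin, a relative of decorin that lacks a glycosaminoglycan chain, and Podn encodes podocan. Both were low. Aspn ranged from 2.71 to 4.06 over the 16 tumors, that is 3 to 14 reads a library, and its group means were 3.05 ± 0.42 in WT tumors, 3.53 ± 0.41 and 3.58 ± 0.33 in KEAP1-KO tumors of Experiments A and B, and 3.68 ± 0.30 in DKO tumors (SD, n = 4 each). The Aspn difference was 0.48 (SE 0.28; adjusted p = 0.327, limma) between KEAP1-KO and WT tumors, in the direction opposite to that of Dcn, and 0.10 (SE 0.28; adjusted p = 0.897, limma) between DKO and KEAP1-KO tumors. Podn ranged from 2 to 4.14 in tumors and from 2 to 4.25 in cells, with differences of 0.12 (SE 0.44) and 0.31 (SE 0.44) in the tumor comparisons of Experiments A and B, neither of which passed the test. The Podn row without a symbol, ENSMUST00000145491, held 0, 8, 2 and 8 reads in WT tumors, 3, 5, 0 and 3 and 5, 2, 0 and 4 in KEAP1-KO tumors of Experiments A and B, and 0 in every DKO tumor. It had 3 reads in all cell libraries together, did not pass the filter and was not tested.

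Prelp, Ogn and Fmod encode a basement-membrane anchor, osteoglycin and fibromodulin. None of these 3 rows reached the required 5 normalized counts in 4 libraries, and they entered no test. Prelp had 18, 6, 7 and 29 reads in all libraries of the WT, KEAP1-KO A, KEAP1-KO B and DKO tumor groups, of which 21 came from DKO tumor 3. Fmod had 11 reads in WT tumor 1 and 0 in the other WT tumors, and Ogn had 8 reads in WT tumor 1 and at most 1 in the others. The higher values of these rows in tumors thus fell mainly in the tumors with the highest collagen sums, and no genotype difference of these rows was tested.

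With 2 to 4 relatives tested, the counts of calls were read against the share of all rows called. Between KEAP1-KO and WT tumors 0 of 4 tested relatives were called by limma, where 13.1 percent of all rows were called in either direction; 1 of the 4, Lum, had an unadjusted p under 0.05, as did 24.5 percent of all rows, and limma-voom on the recovered reads called 0 of the 4 and 10.6 percent of all rows. Between DKO and KEAP1-KO tumors 1 of 4 was called, Lum, where 8.86 percent of all rows were called. Between KEAP1-KO tumors of the 2 experiments 0 of 4 were called by limma and 0 had an unadjusted p under 0.05, where 0.164 percent of all rows were called and 7.69 percent had such a p. In cells Bgn and Podn were tested. Between KEAP1-KO and WT cells 0 of 2 were called by limma (1, Bgn, at an unadjusted p under 0.05), where 15.5 percent of all rows were called and 26.8 percent had an unadjusted p under 0.05. Between DKO and KEAP1-KO cells 0 of 2 were called (0 unadjusted), where 8.83 percent of all rows were called and 19.6 percent had such a p, and between DKO and WT cells 0 of 2 (1 unadjusted, Bgn), where the shares were 17.7 and 29.1 percent. Limma-voom called neither Bgn nor Podn in the cell comparisons, in which it called 8.69 to 15.1 percent of all rows. Counts this small are near the shares over all rows, and nothing about the relatives as a group is read from them. The median difference of the 4 relatives was -0.31 between KEAP1-KO and WT tumors and 0.46 between DKO and KEAP1-KO tumors, against -0.03 and 0.00 over all rows tested.

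**Figure D2:**
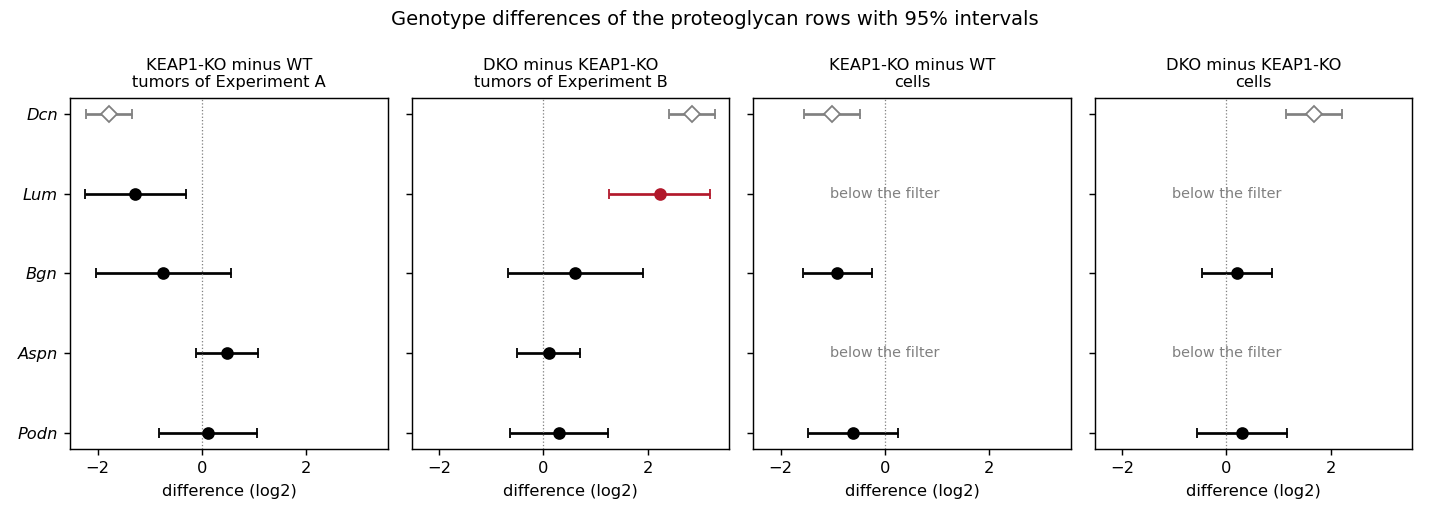
Differences between genotypes of the 5 proteoglycan rows that passed the filter in tumors, in log2 units with 95% intervals from limma; red marks an adjusted p under 0.05, and open grey diamonds mark Dcn, which was chosen by these differences and not tested. Lum in DKO minus KEAP1-KO tumors (2.23) is the only tested difference past the threshold.

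The members were compared between tumors and cultured cells of the same genotype, a contrast in which tumor RNA also holds RNA of the host's cells. Dcn was higher in tumors by 7.74 (SE 0.21) in WT, 6.91 (SE 0.18) in KEAP1-KO and 8.02 (SE 0.21) in DKO (adjusted p from 3.68e-20 to 6.61e-20, limma). Lum and Aspn reached the required 5 normalized counts in 0 of 12 cell libraries and entered this fit through the tumors, so that their higher level in tumors was fixed by the filter and is given with no test. Of the 2 relatives that passed in cells as well, Bgn was called higher in tumors in every genotype and Podn in none, where 38.8 percent of all rows were called in either direction in WT, 44.0 percent in KEAP1-KO and 43.5 percent in DKO. Bgn was higher by 2.22 (SE 0.52), 2.66 (SE 0.45) and 3.33 (SE 0.52). Aspn had 0 reads in WT cells, and its mean normalized count in WT tumors was at least 5.56-fold higher than the floor of 3 reads over that group. In bulk tumors, fewer cells of a type and less RNA per cell cannot be told apart.

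Whether the genotype differences of the relatives differed between tumors and cells was tested as an interaction. Lum and Aspn, with 0 to 3 reads in each cell library, have no usable genotype difference in cells, and their interaction would repeat the tumor difference. Of Bgn and Podn, 0 of 2 were called by limma for the effect of KEAP1 loss (0 at an unadjusted p under 0.05), where 5.38 percent of all rows were called, and 0 of 2 for the effect of NRF2 loss (0 unadjusted), where 3.67 percent were called. The interaction of Bgn was 0.17 (SE 0.74, 95% interval -1.36 to 1.7) for KEAP1 loss and 0.41 (SE 0.74, 95% interval -1.12 to 1.94) for NRF2 loss, intervals wide enough to hold differences of more than 1 in either direction. For Dcn the log2 differences were larger in tumors than in cells, by -0.76 for KEAP1 loss and 1.18 for NRF2 loss, whereas the linear ratios were close, 3.46-fold and 3.52-fold for KEAP1 loss and 7.27-fold and 6.25-fold for NRF2 loss.

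The members differed in how they followed the fibroblast-marker sum from tumor to tumor. The fibroblast-marker sum ranged from 2387 to 10774 normalized counts in WT tumors, from 1585 to 4610 and from 2446 to 3511 in KEAP1-KO tumors of Experiments A and B, and from 5135 to 10792 in DKO tumors. In cultured cells, without host cells, the same rows summed to 557 to 733 in WT, 620 to 688 in KEAP1-KO and 670 to 809 in DKO. The sum is thus not of host RNA alone. Bgn rose with this sum: among the WT tumors it was 9.24 in tumor 1 with the highest sum and 6.42 in tumor 4 with the lowest. Dcn showed the opposite within groups. It was 11.26 in WT tumor 1 and 11.89, its highest WT level, in WT tumor 4, and in DKO tumors it was highest (12.97) in tumor 4, which had the lowest fibroblast-marker sum and the lowest Bgn level (6.64). In KEAP1-KO tumor 3 of Experiment A, with the highest sum of its group, Dcn was at the lowest level of that group (9.39) while Lum and Bgn were at their highest.

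As a description over the 16 tumors, deviations from the group means of Bgn and of the log2 fibroblast-marker sum had a Pearson correlation of 0.95, those of Lum 0.84 and those of Dcn -0.67. Without removing the group means the correlations were 0.88, 0.92 and 0.60. For the Dcn row without a symbol the within-group value was -0.43. Aspn and Podn showed -0.001 and -0.17 within groups. The points share libraries and depth, groups hold 4 tumors each, and 3 of the markers (Col1a1, Col1a2 and Col3a1) are also in the collagen list, for which the within-group values were 0.93 for Bgn, 0.79 for Lum and -0.55 for Dcn.

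**Figure D3:**
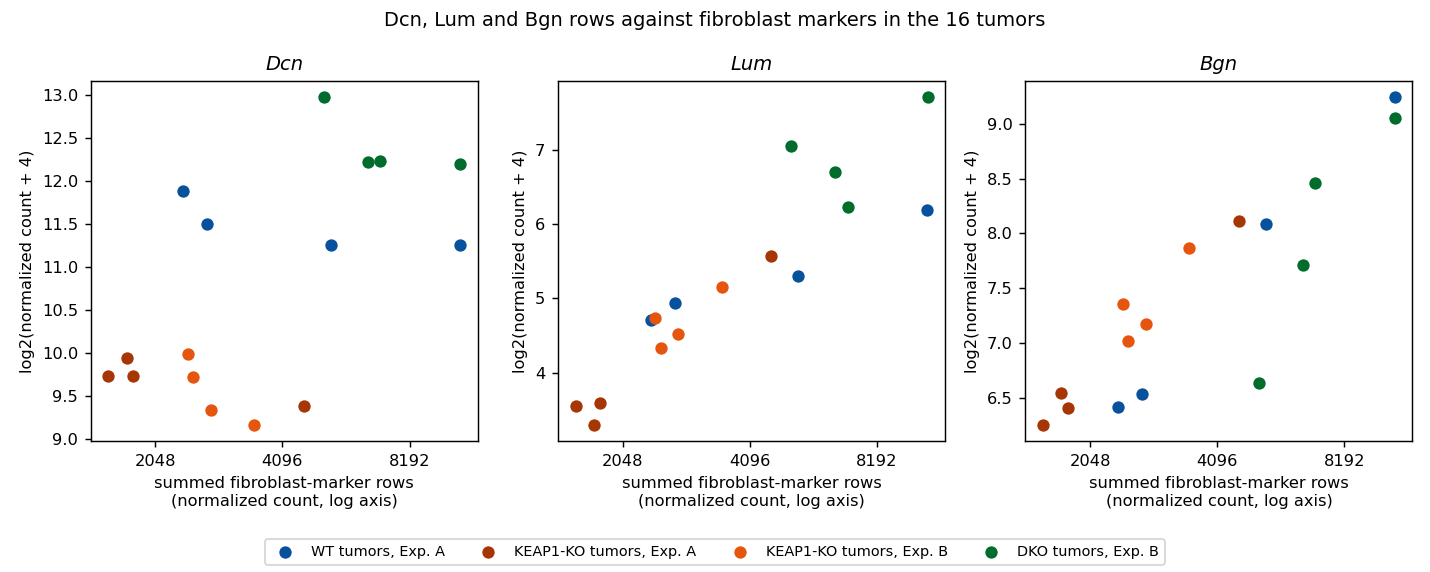
Levels of the Dcn, Lum and Bgn rows (log2(normalized count + 4)) against the summed normalized counts of 15 fibroblast-marker rows (log axis) in the 16 tumors; points are tumors, coloured by group. Over the 16 tumors together Lum and Bgn rise with the sum (Pearson correlations 0.915 and 0.884), and Dcn less so (0.601). Lum does not follow the sum in every group, at 7.05 in DKO tumor 4 and 6.23 in DKO tumor 2, which has a higher sum. Dcn forms separate bands by genotype, with its highest DKO level (12.97) at the lowest DKO sum (5135).

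Leukocyte markers moved with the genotype groups as well. The sum of 10 leukocyte-marker rows ranged from 3535 to 4708 normalized counts in WT tumors, from 1244 to 1420 and from 1735 to 2199 in KEAP1-KO tumors of Experiments A and B, and from 3038 to 4217 in DKO tumors, without overlap between genotypes within an experiment. Dcn and the log2 of this sum had a Pearson correlation of 0.795 over the 16 tumors, but -0.504 within groups. For the Dcn row without a symbol these were 0.787 and -0.477. Of the 10 rows, 10 were called lower in KEAP1-KO tumors than in WT tumors and 9 higher in DKO than in KEAP1-KO tumors. Of 13 fibroblast-marker rows tested, 3 were called lower in KEAP1-KO tumors (Pdpn by -1.95, Dpt by -1.48 and Pdgfrb by -0.98) and 3 higher in DKO tumors (Col3a1 by 2.24, Dpt by 1.31 and Pdpn by 1.15), and of 7 mural-cell rows 0 were called by limma in either comparison. The shares called, 100 and 90 percent of leukocyte rows, 23.1 percent of fibroblast rows in each comparison and 0 of mural rows, stand beside 13.1 and 8.86 percent of all rows. In cultured cells, without host cells, Pdpn was also lower in KEAP1-KO than in WT, by -4.06, whereas Dpt was higher by 1.01. Between KEAP1-KO tumors of both experiments, where 0.164 percent of all rows were called, 3 of the 10 leukocyte rows were called higher in Experiment B (Cd52 by 1.30, Csf1r by 1.02 and Ptprc by 0.81). The sum of 7 skeletal-muscle rows was 1432, 593 and 1154 normalized counts in DKO tumors 1 to 3, but 79.3 in DKO tumor 4 and at most 269 in KEAP1-KO tumors of Experiment B. Dcn was at 12.97 and Lum at 7.05 in DKO tumor 4. The part of these cells in the differences of Dcn and Lum was not tested.

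Other genes of the family gave a mixed picture. Of 10 further symbols 5 were in the table and 3 were tested in tumors, of which 2, or 66.7 percent, were called in each comparison, beside 13.1 and 8.86 percent of all rows. The third, Ecm2, was not called, with differences of -0.55 (SE 0.43) and -0.08 (SE 0.43) in Experiments A and B. Tsku, encoding tsukushi, a small secreted leucine-rich protein, moved opposite to Dcn: it was higher by 2.04 (SE 0.09; adjusted p = 3.62e-10, limma) in KEAP1-KO tumors than in WT tumors and lower, by -1.40 (SE 0.09; adjusted p = 3.53e-08, limma), in DKO than in KEAP1-KO tumors. In cells Tsku was higher by 1.5 (SE 0.07) in KEAP1-KO than in WT cells and lower, by -1.68 (SE 0.07), in DKO than in KEAP1-KO cells, and both differences passed the test. Podnl1, a podocan-like gene, was lower by -1.65 (SE 0.29; adjusted p = 0.000871, limma) in KEAP1-KO tumors and higher by 1.18 (SE 0.29; adjusted p = 0.0154, limma) in DKO tumors, whereas in cells it was lower by -1.04 in KEAP1-KO than in WT cells and did not return in DKO cells, at -0.50 against KEAP1-KO cells (adjusted p = 0.336, limma). Nyx, which encodes nyctalopin, was higher by 1.03 (SE 0.26; adjusted p = 0.0158, limma) in KEAP1-KO than in WT cells and at -0.89 in DKO against KEAP1-KO cells, a difference that missed the threshold (adjusted p = 0.0518, limma).

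The enzymes that build glycosaminoglycan chains held rows called in both directions. Of 24 rows tested in tumors, 2 were higher and 3 lower in KEAP1-KO tumors than in WT tumors, and 2 were higher and 4 lower in DKO than in KEAP1-KO tumors. That is 5 and 6 of 24 called in either direction, 20.8 and 25 percent, beside 13.1 and 8.86 percent of all rows. Xylt1, which adds the first sugar of the chain to the core protein, was lower by -1.54 (SE 0.20) in KEAP1-KO tumors and higher by 1.19 (SE 0.20) in DKO tumors. Chpf2, which takes part in chondroitin chain polymerization, went the other way, by 1.5 (SE 0.06) and -0.57 (SE 0.06), as did Chst1, a keratan sulfate sulfotransferase, by 0.81 and -0.55 (SE 0.11 each). The list's median difference was -0.12 and 0.06, against -0.03 and 0.00 over all rows.

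Among 15 collagen and collagen-partner rows, 3 were called lower and 0 higher in KEAP1-KO tumors than in WT tumors, namely Thbs1 (-2.36, SE 0.31), Col6a3 (-1.77, SE 0.38) and Col6a2 (-1.62, SE 0.10). In DKO tumors 3 were called higher, Thbs1 (2.37, SE 0.31), Col3a1 (2.24, SE 0.45) and Col6a2 (0.81, SE 0.10), and Col5a3 was called lower (-1.66). These 3 and 4 of 15 rows are 20 and 26.7 percent, beside the same 13.1 and 8.86 percent of all rows. Col1a1 and Col1a2, the chains of the collagen that decorin binds in skin and tendon, were not called in either comparison, with differences of -1.61 (SE 0.98) and -1.72 (SE 0.99) in Experiment A and 0.39 (SE 0.98) and 0.33 (SE 0.99) in Experiment B.

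Of 26 rows of signalling partners, 0 were higher and 5 lower in KEAP1-KO tumors than in WT tumors, and 4 were higher and 3 lower in DKO than in KEAP1-KO tumors. The shares called were 19.2 and 26.9 percent, beside 13.1 and 8.86 percent of all rows. Tlr2, a receptor for soluble biglycan, was lower by -1.90 (SE 0.20) and higher by 1.07 (SE 0.20). Lrp1, an endocytic receptor of decorin, was lower by -0.66 (SE 0.08) and higher by 1.19 (SE 0.08). Vegfa, which was not called in Experiment A, was lower by -1.86 (SE 0.52; adjusted p = 0.033, limma) in DKO tumors. Among 12 proteases and their helpers, some of which cleave these proteoglycans, 4 were lower in KEAP1-KO tumors and 3 higher in DKO tumors, 33.3 and 25 percent of the list; Gzmb, the granzyme of cytotoxic lymphocytes, was lower by -2.78 (SE 0.37) and higher by 1.74 (SE 0.37), and Mmp14, a membrane-bound metalloprotease, was lower by -0.57 (SE 0.08) and higher by 1.0 (SE 0.08).

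**Figure D4:**
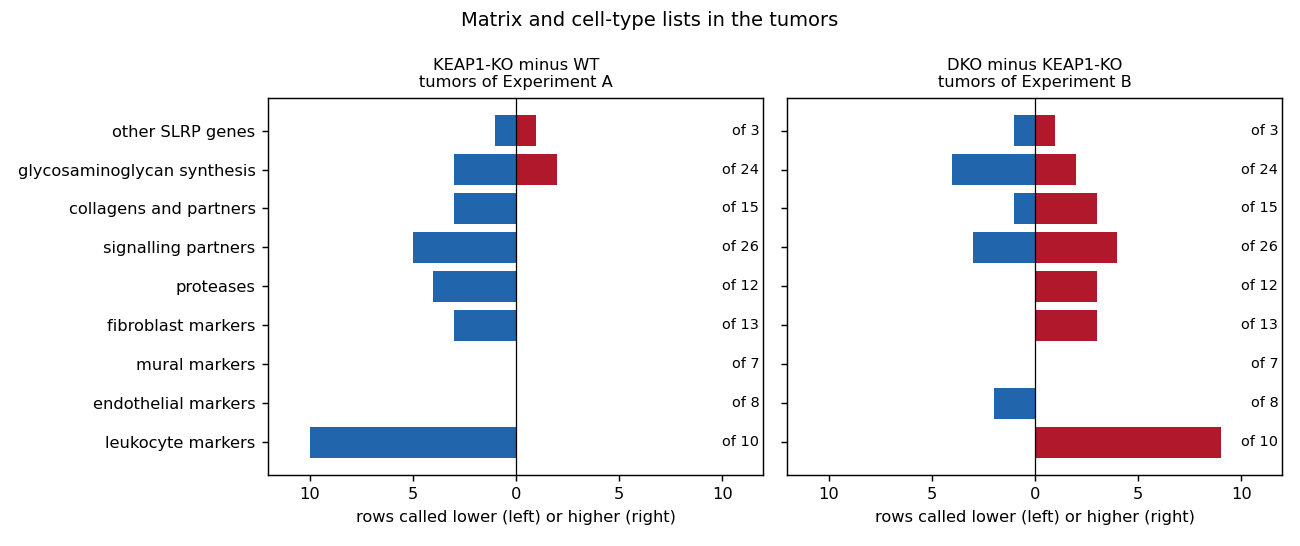
Number of rows called lower (blue, to the left) or higher (red, to the right) by limma at an adjusted p under 0.05 in each gene list, for KEAP1-KO minus WT tumors and DKO minus KEAP1-KO tumors; the number of rows tested stands at the right edge. Leukocyte markers have the most calls, 10 of 10 lower and 9 of 10 higher, and mural markers have 0.

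The rows with a symbol whose pattern was most like that of Dcn were named by Pearson correlation of log2 levels, as a description. The Dcn row without a symbol was left out of this ranking. It had 0.985 over the 28 libraries and 0.985 over the 16 tumors. Over the 28 libraries, where the split between tumors and cells dominates, these were Lrp1 (0.99), Fry (0.98), Pirb (0.98), Dpep2 (0.98) and Birc3 (0.98). Over the 16 tumors they were Mmp14 (0.98), Lrp1 (0.97), Dpysl2 (0.96), Os9 (0.96) and Gm49342 (0.96). Over the 12 cell libraries, where Dcn had 1 to 22 reads, they were Car6 (0.97), Sorbs3 (0.95), R3hcc1 (0.95), Gm37305 (0.94) and Gm48792 (0.93). The Lrp1, Pirb, Dpep2 and R3hcc1 rows were retained-intron transcripts, as was the Dcn row, and the Mmp14 row was a nonsense-mediated-decay transcript. Fry and Birc3 were protein-coding transcripts, Car6 a processed transcript and the others gene rows. Of the relatives, Lum had the highest correlation with Dcn over the tumors (0.73), ahead of Podn (0.24), Bgn (0.22) and Aspn (-0.11). That value includes the differences between genotype groups, which chose Dcn: within groups Lum and Dcn had -0.44 and Bgn and Dcn -0.71. Many rows outside the family stood closer to Dcn than Lum did, which ranked 748 among the rows with a symbol.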

How the data were processed

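RNA of 28 libraries was depleted of ribosomal RNA and sequenced with strand information. The authors quantified reads with Salmon and deposited log2 values, which per the values are log2(normalized count + 4), 1 row per transcript or gene; the study's methods name GENCODE mouse transcripts of version 35, and 95.86 percent of rows were found in vM21. Below 12 normalized counts, 100.0 percent of values stood on whole reads within 0.02. Because the deposited unit is log2, limma 3.58.1 in R 4.3.3 was fitted with a mean-variance trend over the rows that reached 5 normalized counts in 4 or more libraries: 34215 rows in 16 tumors, 29744 in 12 cell libraries and 37246 in all 28. P-values were adjusted by Benjamini-Hochberg over all rows tested, with 0.05 as threshold. Symbols were taken from the table, and each gene of a list is represented by the 1 row that carries its symbol, often a retained-intron transcript. The named genes were the members, the 4 largest called differences a list, and 5 likenesses. Members and lists were chosen with earlier results of these data known. The fit was also run on simulated data, from which no result is drawn here. Endothelial, skeletal-muscle and adipocyte lists served as checks. The extraction label names liver, against the titles; the titles were followed. Alternatives were another pseudocount, filters, scalings, sample sets, variance models, a replicate block, leaving out libraries and row sums; row sums by annotated gene and limma-voom were added after the data were seen.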

Additional observations from a re-analysis of the deposited data

Results flagged for a closer look

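A library was singled out where it lay far from the other 3 of its group, its gap to the nearest of them taking more of the group's range than Dixon's 95% limit. Of 61 sets of 4 libraries with any spread, 12 were singled out, and chance singles out about 1 in 20. Among the well-covered rows, Dcn in DKO tumor 4 was at 12.97 with the other DKO tumors between 12.2 and 12.23, Bgn in KEAP1-KO tumor 3 of Experiment A was at 8.11 with the others between 6.25 and 6.55, and Lum in the same tumor was at 5.57 with the others between 3.3 and 3.6. That tumor also had the highest fibroblast-marker sum of its group, and DKO tumor 4 the lowest of its group.

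The remaining 9 rest on 11 reads or fewer. Fmod was at 3.79 in WT tumor 1, at 2.31 in KEAP1-KO tumor 4 of Experiment A and at 2.29 in KEAP1-KO cell library 4. Ogn was at 2.90 in KEAP1-KO tumor 2 of Experiment A, at 2.85 in WT cell library 4 and at 2 in KEAP1-KO cell library 3. Lum was at 2.35 in WT cell library 2, the Podn row with the symbol at 2 in WT tumor 2 (where the Podn row without a symbol held 8 reads), and the Dcn row without a symbol at 2.34 in DKO cell library 2.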

How the results depend on the processing

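The limits are few reads in cells, 1 row a gene and 4 libraries a group. Of 132 counts of called relatives 125 stayed within 1.5 times. The count of called relatives went from 0 to 1 between KEAP1-KO and WT cells with only the groups compared and with rows summed by annotated gene, and between KEAP1-KO and WT tumors with all 28 libraries and with those sums. Leaving out 1 library gave 0 to 1 in KEAP1-KO against WT tumors and in DKO against WT cells (Bgn at -0.995 without DKO cell library 3, adjusted p = 0.0255). In the interactions the count also went from 0 to 1, through Lum, in the NRF2 interaction with a mean of at least 25, only the groups compared and those sums, and in both when 1 library was left out (KEAP1-KO tumor 3 of Experiment A or DKO tumor 2); Lum has no usable genotype difference in cells, and nothing is read from these changes.

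The pseudocount of 0.4 moved Dcn to -1.80 (KEAP1-KO minus WT cells) and 2.65 (DKO minus KEAP1-KO cells), and limma-voom to -1.77 and 2.63; the KEAP1 interaction of Dcn turned to 0.0195 with that pseudocount and was -0.061 with voom, and the NRF2 interaction was 0.208 and 0.338. This follows from the pseudocount of 4, which shrinks differences between low levels. With rows summed by annotated gene Podn was called higher in KEAP1-KO tumors than in cells (0.958, adjusted p = 0.00599). A filter on a mean of 25 removed Aspn and Podn from every fit that held them and Dcn from that of the cells, which gave no value. Leaving out 1 library kept Dcn between -1.86 and -1.64 and between 2.66 and 3.00 in tumors.

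Differences that had not passed the test changed sign for Podn with sums by annotated gene (0.223 in WT tumors minus cells, -0.0285 in KEAP1-KO minus WT tumors and -0.27 in the NRF2 interaction, where quantile normalization gave -0.0317 and median centring -0.0838), and for Aspn, whose interactions have no usable value in cells either (-0.0549 in the KEAP1 interaction with a pseudocount of 0.4; -0.0162 with quantile normalization and -0.0034 with median centring in the NRF2 interaction; -0.00478 between KEAP1-KO tumors with quantile normalization). Leaving out 1 library gave ranges through 0: Bgn -0.0852 to 0.412 in DKO minus KEAP1-KO cells and -0.257 to 0.727 in the KEAP1 interaction; Podn -0.532 to 0.0628 in DKO minus WT cells, -0.442 to 0.13 in WT tumors minus cells, -0.372 to 0.222 in the NRF2 interaction, -0.271 to 0.561 in KEAP1-KO minus WT tumors and -0.205 to 0.509 between KEAP1-KO tumors; Aspn -0.0302 to 0.221 in DKO minus KEAP1-KO tumors, -0.0454 to 0.206 in the NRF2 interaction and -0.106 to 0.222 between KEAP1-KO tumors.

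Counts of all called rows moved over 1.5 times in 11 of 132 cases. Between KEAP1-KO tumors of both experiments they went from 56 to 28 without a filter, 5 with only those groups, 8 with no trend, 0 with voom, 124 with all 28 libraries and 98 with row sums by annotated gene, and to 0 without KEAP1-KO tumor 4 of Experiment B. With a mean of at least 25 they went from 14450 to 9365, 16372 to 10295 and 16190 to 10073 in tumors minus cells (WT, KEAP1-KO, DKO), since fewer rows were tested, and with voom from 2003 to 897 and 1368 to 734 in the interactions.

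Replicate numbers share no stated source. Same-numbered deviations correlated between -0.029 and 0.031; only between WT and DKO cells did 4 of 4 libraries correlate best with their own number, 0 or 1 elsewhere. With a replicate block Lum stayed at 2.23 (adjusted p = 0.00899, limma) between DKO and KEAP1-KO tumors, rows called went from 4599 to 4063 in KEAP1-KO minus WT cells and from 4483 to 4411 in KEAP1-KO minus WT tumors, and called relatives did not change.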

Other observations

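Endothelial, skeletal-muscle and adipocyte markers are described beside the 13.1 percent of all rows called between KEAP1-KO and WT tumors and the 8.86 percent called between DKO and KEAP1-KO tumors. Of 8 endothelial rows tested, 0 were called by limma in either direction between KEAP1-KO and WT tumors, and 0 were higher and 2 lower in DKO than in KEAP1-KO tumors (Cldn5 by -1.05 and Esam by -0.65). Of 4 skeletal-muscle rows, 0 were called in Experiment A and 2 were higher in DKO tumors, Acta1 by 2.96 and Myh1 by 2.70, with a high muscle sum in 3 of the 4 DKO tumors. Of 4 adipocyte rows, Lpl was lower by -2.22 in KEAP1-KO than in WT tumors, and Plin4 was higher by 1.2 in DKO than in KEAP1-KO tumors.

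In the cultured cells, matrix and marker genes differed between genotypes without host cells being present. Of 9 fibroblast-marker rows tested in cells, 4 were called between KEAP1-KO and WT cells, 44.4 percent beside 15.5 percent of all rows, and 3 of them were higher in KEAP1-KO cells, Gsn by 2.26, Col3a1 by 1.25 and Dpt by 1.01. The fourth, podoplanin (Pdpn), was lower by -4.06 in KEAP1-KO than in WT cells and did not return in DKO cells, which lay at -3.80 from WT cells. The versican-cleaving protease gene Adamts1 was higher by 3.14 in KEAP1-KO than in WT cells and higher again by 1.84 in DKO than in KEAP1-KO cells. Among 5 endothelial-marker rows measured in cells, Esam (1.94), Cdh5 (1.87) and Vwf (1.84) were higher in KEAP1-KO than in WT cells. In that comparison 15.5 percent of all rows were called. The sum of all 8 endothelial rows was 14.1 to 20.4 normalized counts in WT cells and 69.9 to 95.2 in KEAP1-KO cells, against 983 or more in tumors. With WT cells that low, rows could pass the filter through the edited lines. These differences are therefore given as a description. From KEAP1-KO to DKO cells, where 8.83 percent of all rows were called, these 3 rows parted, with Vwf (-1.95) and Esam (-1.37) lower and Cdh5 (1.30) higher.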
